A study of Homo sapiens with 23 samples.

Results

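The clustered histone genes encode the linker histone H1 and the core histones H2A, H2B, H3 and H4. They were followed in 4 human multiple myeloma lines that carried a CRISPR guide to IRF4, a plasma cell transcription factor, or were labelled EV. Members were the genes of the count table whose symbol starts with HIST1H, HIST2H, HIST3H or HIST4H, without pseudogene names and with at least 10 counts summed over all libraries. This gave 58 of 28395 genes, from 73 symbols with such a prefix, of which 1 carried a pseudogene name and 14 had fewer than 10 counts. Just inside that limit were HIST1H4A and HIST1H2AD with 11 counts each, and just outside it were HIST2H4A and HIST1H1T with 9 counts each. The members were 4 H1, 16 H2A, 18 H2B, 10 H3 and 10 H4 genes. On GRCh38, 47 lay in the HIST1 cluster (chr6:26020451-27893891), 8 in HIST2 (chr1:149782689-149887965), 2 in HIST3 (chr1:228457364-228458558) and 1, HIST4H4, at chr12:14770720-14771131. RefSeq annotates 1 of them, HIST2H2BC, as a pseudogene.

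The lines were H929, MM1S, OPM2 and RPMI-8226, all cultured malignant plasma cells. The headers of the deposited log2 RPKM values (expression per gene length) name Cas9 for the IRF4 and EV libraries of every line. In each line, libraries with an induced IRF4 guide were set against those labelled EV. What EV stands for, and whether the EV cells carried a guide, is not given in the sources used here. All cells, EV cells included, received doxycycline for 48 hours, which switches on the guide in the IRF4 cells. Each group had 3 libraries, except MM1S EV with 2 (replicates 2 and 3). The IRF4 guide was a single one, so effects of IRF4 loss and of anything else that guide does cannot be told apart. The labels did not say whether replicates came from separate cultures, so the spread that p-values measure may be a technical one.

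Most clustered histone genes are transcribed together in S phase, when new DNA has to be packed into nucleosomes. Their mRNAs are unusual in that they end in a short stem-loop, bound by the protein SLBP, in place of a poly(A) tail, and they are degraded when DNA synthesis stops. Some members also give longer, polyadenylated transcripts that run past the stem-loop, mainly in cells that have left the cell cycle or are differentiating. Histone H1 binds the linker DNA between nucleosomes, while H2A, H2B, H3 and H4 form the core around which DNA is wound. The labels name a TruSeq RNA kit for the libraries. Neither the use of poly(A) selection nor the strand setting of the counting is given in the sources used here. The values below are therefore levels of those histone transcripts that the libraries captured, and genes that share sequence with near-identical copies are uncertain.

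The promoters of the members that carried most of the signal, or around which the results below turn, are shown here from RefSeq (GRCh38.p14, 250 bases before to 50 after the start site, 5′ to 3′ on the gene's strand). HIST1H1C lies at chr6:26056421-26056720 (minus strand), HIST1H2BK at chr6:27146809-27147108 (minus), HIST2H2BE at chr1:149886633-149886932 (minus), HIST1H2AC at chr6:26123922-26124221 (plus) and HIST1H3H at chr6:27809801-27810100 (plus). Capitals mark matches, on either strand, to CCAAT, to TATAAA, to the octamer ATTTGCAT, to the H1 box AAACACA, to the E2F-type pattern TTTNNCGC and to an IRF-type pattern of 2 GAAA blocks with any 2 bases between them.
HIST1H1C: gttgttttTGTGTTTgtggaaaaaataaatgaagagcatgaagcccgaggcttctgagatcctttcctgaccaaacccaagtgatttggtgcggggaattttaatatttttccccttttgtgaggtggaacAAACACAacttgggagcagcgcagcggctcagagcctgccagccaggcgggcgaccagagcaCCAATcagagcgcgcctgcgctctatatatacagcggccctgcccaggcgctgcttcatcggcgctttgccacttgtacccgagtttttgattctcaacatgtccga
HIST1H2BK: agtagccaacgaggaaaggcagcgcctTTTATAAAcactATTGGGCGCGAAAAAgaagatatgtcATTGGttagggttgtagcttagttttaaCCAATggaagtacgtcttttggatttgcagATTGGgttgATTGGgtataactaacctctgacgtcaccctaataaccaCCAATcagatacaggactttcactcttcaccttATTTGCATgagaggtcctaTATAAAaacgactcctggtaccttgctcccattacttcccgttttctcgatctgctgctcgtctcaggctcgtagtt
HIST2H2BE: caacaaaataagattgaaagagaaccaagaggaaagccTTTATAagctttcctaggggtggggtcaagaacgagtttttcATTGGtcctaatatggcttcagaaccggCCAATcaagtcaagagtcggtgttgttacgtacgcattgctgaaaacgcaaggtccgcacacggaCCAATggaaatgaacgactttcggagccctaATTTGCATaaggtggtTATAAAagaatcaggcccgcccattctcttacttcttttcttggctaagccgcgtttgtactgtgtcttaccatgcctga
HIST1H2AC: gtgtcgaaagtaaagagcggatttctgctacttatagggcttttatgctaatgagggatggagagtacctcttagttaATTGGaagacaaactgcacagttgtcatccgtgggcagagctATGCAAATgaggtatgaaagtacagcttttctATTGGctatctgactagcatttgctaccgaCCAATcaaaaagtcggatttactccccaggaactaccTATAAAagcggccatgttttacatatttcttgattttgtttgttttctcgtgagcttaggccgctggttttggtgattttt
HIST1H3H: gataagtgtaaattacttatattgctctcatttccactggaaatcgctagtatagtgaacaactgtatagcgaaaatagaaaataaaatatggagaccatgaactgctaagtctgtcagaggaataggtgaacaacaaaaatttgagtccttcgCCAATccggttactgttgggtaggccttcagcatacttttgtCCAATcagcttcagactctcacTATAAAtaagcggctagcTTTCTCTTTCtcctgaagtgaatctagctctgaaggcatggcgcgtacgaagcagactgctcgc

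HIST2H2BE and HIST1H2BK both held the octamer 46 bases before the start, followed by TATAAA 30 and 27 bases before it. HIST1H1C held no octamer and no TATAAA in this window, but an H1 box 119 bases before the start and CCAAT 57 bases before it. HIST1H3H held the IRF-type pattern on the minus strand 14 bases before the start. Promoter windows were found for 39 of the 41 members that had enough counts to be tested. CCAAT was present in 35 of them (89.7%, against 35.7% of all 27305 promoters of the same length), TATAAA in 23 (59.0%, against 12%) and the octamer in 16 (41.0%, against 1.80%). The octamer was found in 9 of 13 H2B and 6 of 11 H2A windows, and the H1 box in 4 of 4 H1 windows. Windows of close neighbours on opposite strands overlap, so the same match can count for both genes. The octamers of HIST2H2AC, HIST1H2AC, HIST1H2AE, HIST1H2AG and HIST1H2AM were the same bases as those of their H2B neighbours. HIST1H3D likewise shared its octamer with HIST1H2BF. The E2F-type pattern was present in 13 windows (33.3%, against 6.90%) and the IRF-type pattern in 2 (5.13%, against 3.65%), those of HIST1H3H and HIST1H2BJ. A match is a description of letters and not a binding site.

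The stem-loop, searched for by its consensus (a stem that opens with GG and closes with CC around a run of T), was found in a GENCODE 29 transcript of 24 of the 41 tested members, in 5 distinct versions. In 18 of the 24, an annotated transcript ran more than 100 bases past it, and 11 of these had AATAAA or ATTAAA in the last 50 bases. A short annotated transcript, such as that of HIST1H2BK (381 bases), may end before the stem-loop. A missing match therefore does not show that a gene lacks it. An example of each version is shown with the stem-loop in capitals and 5 bases on each side.
HIST2H2BE: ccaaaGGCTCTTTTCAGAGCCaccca
HIST1H2BC: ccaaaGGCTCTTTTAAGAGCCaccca
HIST1H2AG: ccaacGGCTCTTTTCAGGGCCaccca
HIST1H4H: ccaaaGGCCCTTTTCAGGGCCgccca
HIST1H4I: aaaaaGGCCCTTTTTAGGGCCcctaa

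An annotated transcript with the stem-loop continued for 1729 bases after the stem-loop in HIST2H2BE, 116 in HIST1H2BC, 1761 in HIST1H2AG, 1655 in HIST1H4H and 212 in HIST1H4I.

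IRF4 itself was lower with the IRF4 guide in every line, by 0.66 to 1.58 on the log2 scale. In H929 it stood at 579, 773 and 854 CPM (counts scaled to a common library size, TMM-normalised) with the IRF4 guide, against 2181, 2219 and 2196 with EV. In OPM2 it stood at 890, 1331 and 897 CPM against 1569, 2030 and 1318, so that the groups overlapped there alone. The log2 fold changes (± SE) were -1.58 ± 0.18 in H929 (edgeR quasi-likelihood test, Benjamini-Hochberg adjusted p = 7.84e-07), -1.37 ± 0.20 in MM1S (adjusted p = 3.96e-05), -0.66 ± 0.18 in OPM2 (adjusted p = 0.00675) and -1.10 ± 0.18 in RPMI-8226 (adjusted p = 0.000173). A library held 6907390 to 28486960 counts, of which the members took 0.00199 to 0.0759% of a library, 141155 counts in all. All changes below are on the log2 scale, as IRF4 guide over EV, and a gene was called at an edgeR adjusted p under 0.05 over all 16468 genes tested.

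With the IRF4 guide, the summed level of clustered histone transcripts was several times that with EV in H929 and RPMI-8226, and the groups lay closer together in MM1S and OPM2. The 58 members summed to 587 ± 82.8 CPM (SD) with the IRF4 guide, against 121 ± 13.7 with EV in H929 (n = 3 each), and to 398 ± 67.8 against 108 ± 9.86 in RPMI-8226 (n = 3 each). In MM1S the sums were 37.9 ± 3.15 CPM (n = 3) against 21.1 ± 2.65 (n = 2), and in OPM2 577 ± 125 against 490 ± 133 (n = 3 each). The IRF4 libraries lay above all EV libraries in H929, MM1S and RPMI-8226, while in OPM2 the ranges overlapped (502 to 720 against 371 to 633 CPM). Within each replicate number of OPM2, the sum was higher with the IRF4 guide (507 against 465, 720 against 633 and 502 against 371 CPM), a comparison of 3 pairs that was not tested. In bulk RNA, a different number of cells of a kind and a different amount of RNA per cell cannot be told apart.

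**Figure D1:**
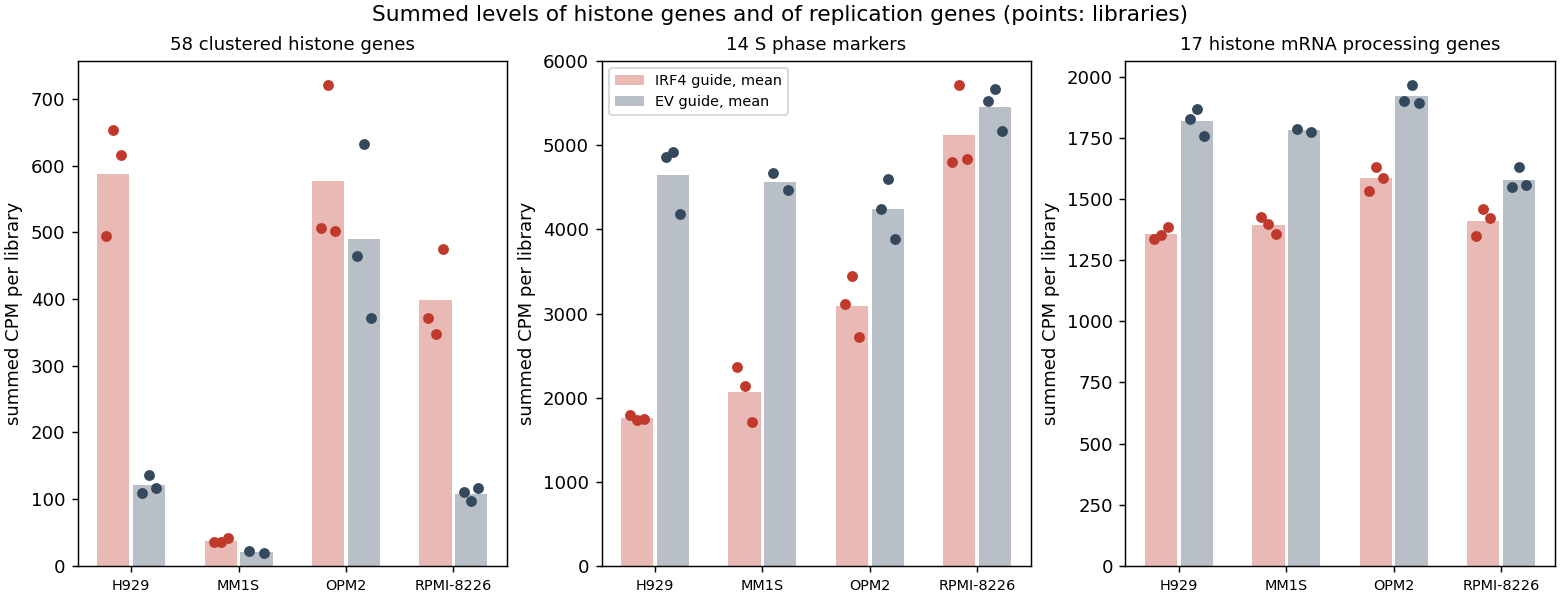
Summed CPM per library (points) and group mean (bars) of the 58 clustered histone genes, of 14 S phase markers and of 17 genes of histone pre-mRNA processing, with the IRF4 guide left of EV in each line. The histone sum was higher with the IRF4 guide than with EV in H929, MM1S and RPMI-8226 without overlap, while the S phase markers had lower sums in H929, MM1S and OPM2.

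HIST1H1C and HIST1H2BK together held 63.3% of all member counts, and the 5 most abundant members held 83.0%. Without that pair, the sum was 205 to 292 CPM with the IRF4 guide against 25.0 to 35.5 with EV in H929, and 17.2 to 25.6 against 8.97 to 10.4 in MM1S. It was 195 to 277 CPM against 87.4 to 153 in OPM2 and 121 to 183 against 35.7 to 45.7 in RPMI-8226. The groups therefore did not overlap in any line once that pair was left out. The pair's share of the member sum was 58.8 to 61.6% with the IRF4 guide against 75.8 to 77.8% with EV in OPM2, and 52.6 to 58.5% against 69.8 to 79.1% in H929. It overlapped in RPMI-8226 (55.7 to 65.1% against 58.7 to 63.4%) and in MM1S (38.3 to 52.5% against 45.9 to 60.9%).

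Of the 58 members, 41 passed the filter on low counts and were tested. In H929, 30 of the 41 were higher with the IRF4 guide and none lower, beside 32.9% of all tested genes higher and 26.1% lower (58.9% in either direction). In RPMI-8226, 21 were higher and none lower (19.2% and 14.7% of all genes, 33.9% in all), and in OPM2 16 were higher and none lower (23.2% and 20.2%, 43.4% in all). In MM1S, 3 were higher and 1 lower, beside 19.4% and 15.2%, so the share there was below the background in both directions. The MM1S EV libraries held 172 and 225 counts over all 58 members. A missing call there therefore does not show that a member was unchanged. On the average of the 4 lines, 22 were higher and 1 lower, beside 32.6% and 25.1%, and 8 could not be called there because a line had no counts. A member that passed the filter through the group in which it was high had to differ, so these counts do not stand for the untested members. With the deposited log2 RPKM values and limma, 24 members were higher and 1, HIST2H2AC, lower in H929, and 5 higher and 1 lower in OPM2. That scaling also moved the split of all genes in H929 to 4145 higher and 4935 lower, against 5411 and 4295 from the counts, and the median of all genes to -0.07, against 0.10.

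Over the tested members with counts in the line, H929 had a median log2 fold change of 2.52, MM1S of 0.72, OPM2 of 1.04 and RPMI-8226 of 1.45. The medians over all tested genes were 0.10, 0.07, 0.03 and 0.04 in the same order. These kept genes without counts in a line, which the member medians in MM1S and OPM2 left out. With members at 0 counts in a group set to their lower bound (a floor of 3 counts over the group), the medians were 2.18, 0.69, 0.95 and 1.28. In H929, all IRF4 libraries lay above all EV libraries in 30 of the 41 members and below in 1, beside 34.4% and 27.7% of all tested genes. In RPMI-8226 this held for 24 above and 1 below (24.7% and 18.4% of all genes), and in OPM2 for 18 above and none below (28% and 23.9%). In MM1S, with 2 EV libraries, it held for 8 above and 2 below (31.4% and 24%), both shares being under the background. By lines, 1 member was called higher in all 4 (5.14% of all genes), 14 in 3 lines, 8 in 2, 8 in 1 and 10 in none, so that 15 were called in at least 3 lines (13.9% of all genes). Of the 14, 12 were called in H929, OPM2 and RPMI-8226, and the others, HIST3H2A and HIST1H2BK, in H929, MM1S and RPMI-8226.

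**Figure D2:**
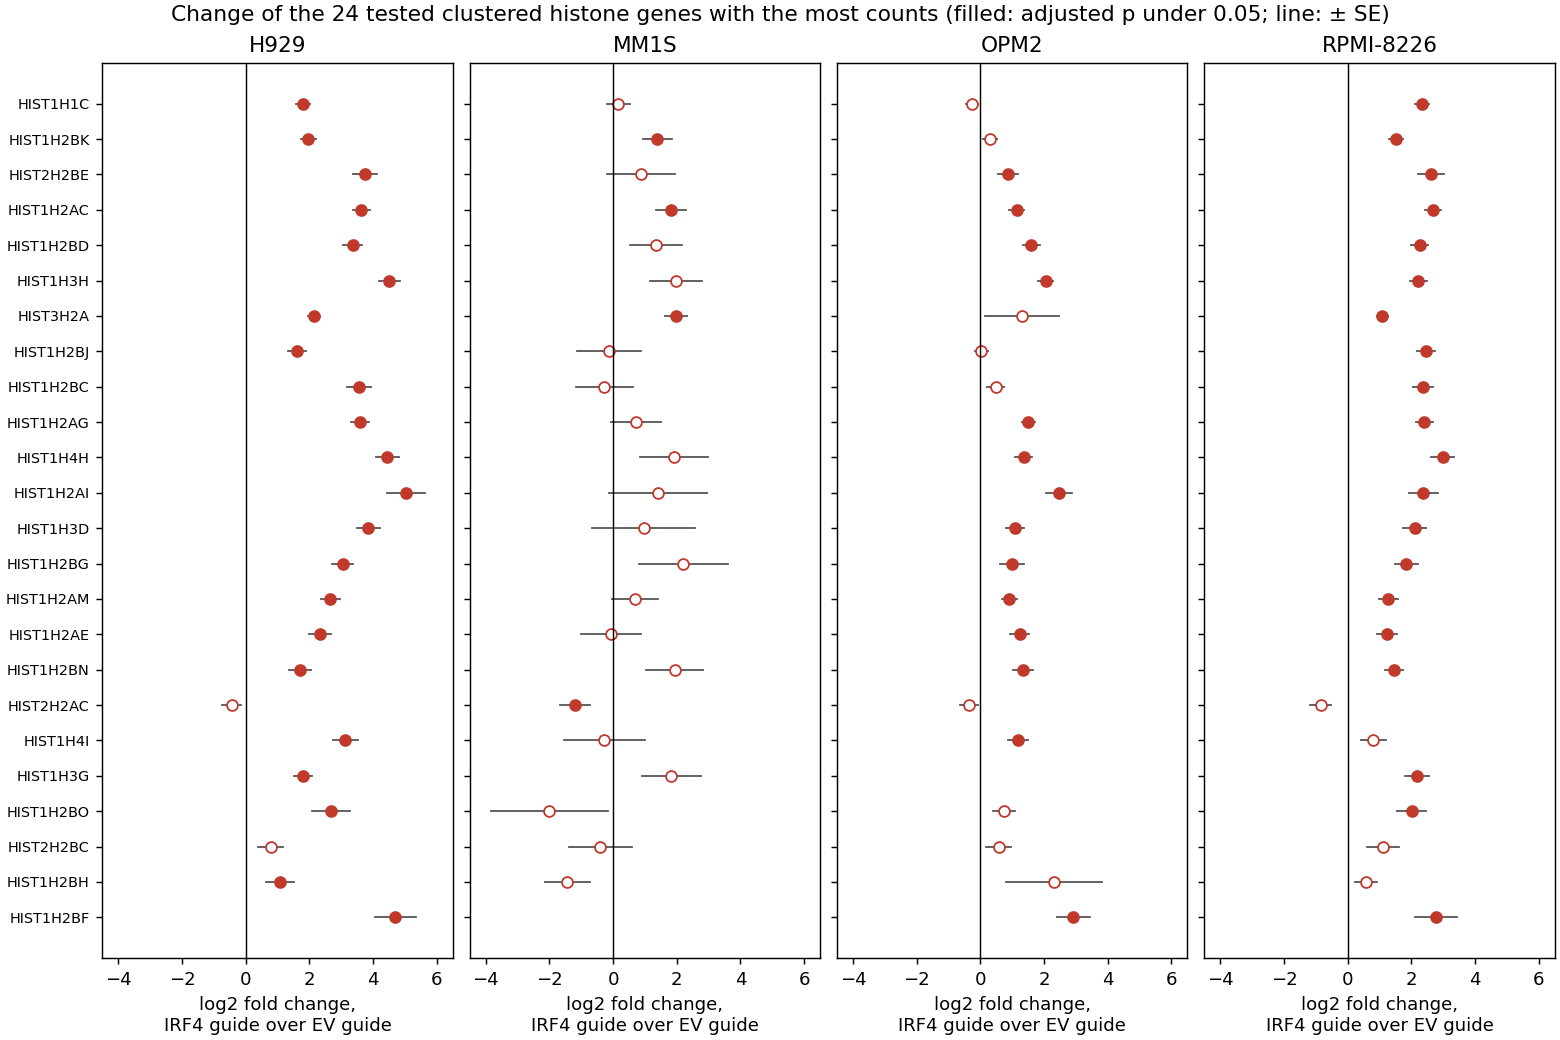
Log2 fold change of the IRF4 guide over EV (± SE) in each line for the 24 tested members with the most counts, where filled points have an edgeR adjusted p under 0.05. Points lie mostly right of 0 in H929 and RPMI-8226, nearer to 0 in OPM2, and with wide errors in MM1S; HIST2H2AC lies left of 0 in all 4 lines.

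Among the linker histones, HIST1H1C, the most abundant member, was called in 2 of the 4 lines. It was at 171, 229 and 195 CPM with the IRF4 guide against 55.0, 63.0 and 53.1 with EV in H929, and at 99.8, 116 and 151 against 23.8, 21.98 and 28.4 in RPMI-8226. The changes were 1.80 ± 0.21 (edgeR adjusted p = 7.78e-07) and 2.33 ± 0.22 (adjusted p = 3.98e-07), with every IRF4 library above every EV library. Its OPM2 libraries were at 199, 288 and 188 CPM against 271, 333 and 212, and in MM1S at 9.90, 9.20 and 6.93 against 9.88 and 6.02, so that the groups overlapped in both. The OPM2 value of -0.27 ± 0.19 was not called (edgeR adjusted p = 0.294), but with replicate number as a block within each line it was -0.28 and called lower (adjusted p = 0.000733), as it was without the low-count filter (-0.23, adjusted p = 0.0322). The MM1S value was 0.17 ± 0.36 (adjusted p = 0.782). HIST1H1C thus had its highest EV level in OPM2, where it was not higher with the IRF4 guide.

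HIST1H1E, another linker histone, rested on few counts. It was at 0.841, 0 and 0.145 CPM with the IRF4 guide against 0.0798, 0 and 0.0466 with EV in H929, a change of 2.80 ± 1.07 (edgeR adjusted p = 0.0272). A single library carried this: without H929 IRF4 replicate 1 the change was 0.80 (adjusted p = 0.668), and the call was also lost without any of the H929 EV replicates (adjusted p = 0.0543 to 0.0842) and with log2 RPKM (0.76, adjusted p = 0.445). Of the 4 tested H1 genes, 3 were called higher in H929, 1 in RPMI-8226 and none in MM1S or OPM2. Of all tested genes, 32.9% were higher in H929, 19.2% in RPMI-8226, 19.4% in MM1S and 23.2% in OPM2. With 4 genes, the RPMI-8226 count did not stand out from that share. These shares are also the background of the other class counts below.

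Among the 11 tested H2A genes, 8 were called higher in H929, 7 in RPMI-8226, 5 in OPM2 and 2 in MM1S. The MM1S count was close to the 19.4% of all tested genes. HIST1H2AC was higher in all 4 lines. It was at 36.4, 48.6 and 48.3 CPM with the IRF4 guide against 3.47, 1.87 and 4.52 with EV in H929, and at 24.4, 24.3 and 31.5 against 5.14, 3.17 and 4.39 in RPMI-8226. In OPM2 it was at 19.95, 25.6 and 20.05 CPM against 10.7, 13.4 and 6.61, and in MM1S at 3.62, 5.56 and 6.93 against 1.32 and 1.45. No line showed an overlap between the groups. The changes were 3.64 ± 0.26 in H929 (edgeR adjusted p = 7.61e-11), 1.82 ± 0.48 in MM1S (adjusted p = 0.00496), 1.14 ± 0.23 in OPM2 (adjusted p = 0.000372) and 2.67 ± 0.25 in RPMI-8226 (adjusted p = 6.39e-08). The MM1S call was lost without MM1S EV replicate 2 (1.76, adjusted p = 0.0635), which leaves a single EV library that is assumed to vary like the others.

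HIST1H2AG and HIST1H2AI, H2A genes of the second HIST1 block, were nearly silent in H929 with EV. HIST1H2AG was at 7.65, 7.48 and 8.56 CPM with the IRF4 guide against 0.639, 0.375 and 0.792 with EV in H929 (3.59 ± 0.28, edgeR adjusted p = 2.52e-12). It was also higher in OPM2 (1.51 ± 0.22, adjusted p = 1.32e-06) and RPMI-8226 (2.40 ± 0.27, adjusted p = 4.97e-08), while in MM1S the value was 0.72 and was not called. HIST1H2AI had 287 counts with the IRF4 guide against 9 with EV in H929, and was at 3.96, 7.12 and 6.24 CPM against 0.239, 0 and 0.14, the largest called rise of a member in that line (5.04 ± 0.59, adjusted p = 1.13e-07). It was called in OPM2 (2.48 ± 0.40, adjusted p = 2.59e-05) and RPMI-8226 (2.38 ± 0.45, adjusted p = 0.000240), but not with the deposited log2 RPKM values (adjusted p = 0.110 and 0.0535). Of its 50-base windows, 62.3% occur in another histone gene's transcripts, so its counts are uncertain.

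HIST3H2A, from the small HIST3 cluster, was called in the 3 lines that had it at measurable levels. It was at 10.6, 13.3 and 13.7 CPM with the IRF4 guide against 1.96, 3.37 and 3.45 with EV in H929, at 4.002, 3.14 and 4.29 against 1.02 and 0.892 in MM1S, and at 17.5, 13.7 and 16.5 against 8.31, 6.77 and 7.24 in RPMI-8226. The groups did not overlap in these lines. The changes were 2.14 ± 0.20 (edgeR adjusted p = 1.00e-10), 1.99 ± 0.35 (adjusted p = 3.49e-05) and 1.09 ± 0.17 (adjusted p = 9.75e-06) in the same order, the MM1S value being the largest called rise of a member there. OPM2 had 4 counts with the IRF4 guide and 1 with EV.

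HIST2H2AC, an H2A gene of the HIST2 cluster, was the 1 tested member called lower by the main edgeR test in a line or on average. It was at 1.60, 1.33 and 1.31 CPM with the IRF4 guide against 1.80, 2.12 and 2.003 with EV in H929, and at 0.717, 0.571 and 0.622 against 1.44, 0.782 and 1.32 in RPMI-8226, with no overlap in either line. It was at 0.562, 0.303 and 0.970 CPM against 1.83 and 0.781 in MM1S and at 1.30, 1.495 and 1.25 against 2.15, 1.54 and 1.37 in OPM2, with overlap in both. The average change was -0.71 ± 0.18 (edgeR adjusted p = 0.000856), with -0.44 ± 0.30 in H929, -0.85 ± 0.34 in RPMI-8226, -0.36 ± 0.29 in OPM2 and -1.19 ± 0.46 in MM1S. Of the single lines, MM1S alone was called (adjusted p = 0.0423, RPMI-8226 0.0512), on 26 counts against 25. The MM1S call was lost without MM1S IRF4 replicate 1 (-1.15, adjusted p = 0.127), IRF4 replicate 2 (-0.98, adjusted p = 0.121) or EV replicate 2 (-0.44, adjusted p = 0.713), and without the low-count filter (-1.20, adjusted p = 0.0684). With log2 RPKM, HIST2H2AC was called lower in H929 (-1.15, adjusted p = 0.00193), OPM2 (-0.79, adjusted p = 0.0363) and RPMI-8226 (-1.14, adjusted p = 0.00542), and in RPMI-8226 also with RLE factors (adjusted p = 0.0468), with the stricter low-count filter (0.0469) and without RPMI-8226 EV replicate 2, OPM2 EV replicate 1, MM1S IRF4 replicate 2 or 3, or MM1S EV replicate 2 or 3 (0.0216 to 0.0497).

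The 14 tested H2B genes gave 12 calls in H929, 9 in RPMI-8226, 6 in OPM2 and 1 in MM1S, all higher. The MM1S count was below the 19.4% of all tested genes. HIST1H2BK, the most abundant H2B gene, was at 118, 150 and 129 CPM with the IRF4 guide against 29.9, 44.9 and 28.9 with EV in H929 (1.97 ± 0.24, edgeR adjusted p = 1.45e-06), and at 108, 110 and 141 against 41.1, 39.4 and 45.3 in RPMI-8226 (1.52 ± 0.23, adjusted p = 7.43e-05). Its OPM2 levels were 113, 155 and 107 CPM against 90.1, 147 and 71.5, with overlap, and the value of 0.30 ± 0.22 was not called. With replicate number as a block within each line, the OPM2 change was 0.33 and called (adjusted p = 0.000598), and it was also called without the low-count filter (0.34, adjusted p = 0.00187) and without OPM2 EV replicate 2 (0.64, adjusted p = 0.00520). In MM1S it was at 8.74, 9.81 and 9.004 CPM against 4.08 and 2.79, without overlap (1.40 ± 0.46, adjusted p = 0.0270). This call was lost without MM1S IRF4 replicate 1 (adjusted p = 0.0517), IRF4 replicate 2 (0.0510), EV replicate 2 (0.0786) or EV replicate 3 (0.175). HIST1H2BK shares 74.1% of its 50-base windows with other histone genes. Its RefSeq span also covers HIST1H4I on the other strand, and the strand setting of the counting is not given.

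HIST2H2BE, an H2B gene with a long polyadenylated transcript as well as the stem-loop form, rose most in the same pair of lines as HIST1H1C. It was at 57.8, 82.0 and 84.6 CPM with the IRF4 guide against 4.75, 3.75 and 7.31 with EV in H929, and at 28.7, 17.04 and 35.8 against 3.74, 4.58 and 5.37 in RPMI-8226. These were changes of 3.75 ± 0.38 (edgeR adjusted p = 2.79e-07) and 2.62 ± 0.39 (adjusted p = 8.52e-05), with no overlap. OPM2 had 65.9, 113 and 66.7 CPM against 37.8, 65.6 and 34.8, again without overlap, though the lowest IRF4 value barely exceeded the highest EV value. This change, 0.86 ± 0.31 (adjusted p = 0.0355), was lost without OPM2 IRF4 replicate 2 (0.56, adjusted p = 0.183), EV replicate 1 (0.74, 0.132) or EV replicate 3 (0.69, 0.141). It was also lost with DESeq2 (adjusted p = 0.0736), with each line fitted alone (0.0873) and with log2 RPKM (0.167). In MM1S it was at 1.40, 1.31 and 2.91 CPM against 0.204 and 1.67, with overlap (0.87 ± 1.07, adjusted p = 0.592).

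HIST1H2BD was at 20.5, 30.04 and 38.6 CPM with the IRF4 guide against 2.04, 2.25 and 4.10 with EV in H929, a change of 3.36 ± 0.31 (edgeR adjusted p = 6.26e-09). It was also higher in OPM2 (1.60 ± 0.26, adjusted p = 4.86e-05) and RPMI-8226 (2.26 ± 0.28, adjusted p = 3.19e-06). The MM1S value, 1.35 ± 0.82, was not called (adjusted p = 0.223), but was called without the low-count filter (0.0180), with DESeq2 (0.0411), with log2 RPKM (0.0394) and with the block within each line (1.86, adjusted p = 0.00384). HIST1H2BC was higher in H929 (5.36, 6.51 and 6.86 CPM against 0.519, 0.625 and 0.466; 3.57 ± 0.38, adjusted p = 4.11e-09) and RPMI-8226 (2.37 ± 0.31, adjusted p = 1.28e-06). In OPM2 it was at 7.71, 10.8 and 5.15 CPM against 5.79, 6.76 and 4.71, which overlapped (0.48 ± 0.26, adjusted p = 0.141), and was called without OPM2 IRF4 replicate 3 (0.71, adjusted p = 0.0293) and without the low-count filter (0.51, adjusted p = 0.0386).

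HIST1H2BJ differed in the same way between lines. It was at 6.69, 6.07 and 8.05 CPM with the IRF4 guide against 1.07, 1.09 and 1.97 with EV in RPMI-8226 (2.46 ± 0.27, edgeR adjusted p = 3.57e-08), and at 4.16, 2.90 and 5.27 against 1.16, 1.62 and 1.58 in H929 (1.60 ± 0.28, adjusted p = 1.53e-05, but with log2 RPKM 0.998 and adjusted p = 0.123). In OPM2, where its EV level was highest, it was at 10.6, 14.02 and 9.63 CPM against 11.1, 14.6 and 8.50 (0.03 ± 0.20, adjusted p = 0.945). Its average change of 0.99 ± 0.27 (adjusted p = 0.00217) was lost without MM1S IRF4 replicate 1 (0.59, adjusted p = 0.425), with replicate number as a block within each line (0.58, adjusted p = 0.365) and with log2 RPKM (0.41, adjusted p = 0.211). HIST1H2BF, at 1.001, 1.33 and 2.42 CPM against 0.0798, 0.125 and 0 in H929, had 86 counts against 3 (4.70 ± 0.65, adjusted p = 5.05e-07). It was also called in OPM2 (2.92 ± 0.51, adjusted p = 3.96e-05), the largest called rise of a member there, and in RPMI-8226 (2.78 ± 0.66, adjusted p = 0.00162), and had no counts in MM1S.

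Of the 7 tested H3 genes, 4 were called higher in H929, none in MM1S and 3 each in OPM2 and RPMI-8226. HIST1H3H was at 9.17, 14.6 and 16.2 CPM with the IRF4 guide against 0.359, 0.4999 and 0.839 with EV in H929 (4.51 ± 0.32, edgeR adjusted p = 7.78e-13). In OPM2 it was at 15.5, 19.1 and 19.9 CPM against 4.31, 6.64 and 3.08 (2.05 ± 0.23, adjusted p = 2.82e-08), and in RPMI-8226 at 7.84, 5.91 and 9.12 against 1.36, 1.64 and 2.19 (2.21 ± 0.27, adjusted p = 2.80e-07). The groups did not overlap in these lines, nor in MM1S, where it was at 0.878, 0.809 and 0.831 CPM against 0.306 and 0.112 but the call was missed (1.97 ± 0.81, adjusted p = 0.0610). That MM1S change was called without the low-count filter (adjusted p = 0.0144), with DESeq2 (0.0393), with a replicate block shared by the lines (0.0307), with the deposited log2 RPKM (0.00370) and without H929 IRF4 replicate 1, OPM2 EV replicate 2 or OPM2 EV replicate 3 (0.0405 to 0.0457).

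HIST1H3G was at 4.20, 5.55 and 5.46 CPM with the IRF4 guide against 0.838, 1.9997 and 1.77 with EV in H929 (1.80 ± 0.29, edgeR adjusted p = 6.76e-06), and at 1.86, 1.22 and 2.09 against 0.453, 0.313 and 0.329 in RPMI-8226 (2.19 ± 0.37, adjusted p = 5.73e-05). It had no counts in any OPM2 library, where 3 counts, the limit that a count of 0 allows, correspond to 0.1001 to 0.356 CPM depending on the library (counting error only). HIST1H3B, in contrast, was called in OPM2 alone, on overlapping groups (0.567, 0.934 and 1.16 CPM against 0.371, 0.711 and 0.176; 1.29 ± 0.52, adjusted p = 0.0459). Its call was lost without any of OPM2 IRF4 replicate 2 (1.24, adjusted p = 0.0848), IRF4 replicate 3 (1.03, 0.163), EV replicate 1 (1.34, 0.114) and EV replicate 3 (0.88, 0.243), and also, narrowly, without any H929 IRF4 library or RPMI-8226 EV replicate 1 (0.0512 to 0.0527). In H929 it was 1.24 (adjusted p = 0.0865), and 2.19 without H929 EV replicate 2 (adjusted p = 0.00565).

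Of the 5 tested H4 genes, 3 were called higher in H929, 2 in OPM2, 1 in RPMI-8226 and none in MM1S. The RPMI-8226 count was close to the 19.2% of all tested genes. HIST1H4H was at 7.53, 10.01 and 11.6 CPM with the IRF4 guide against 0.399, 0.250 and 0.559 with EV in H929 (4.45 ± 0.36, edgeR adjusted p = 5.84e-12), and at 3.63, 2.73 and 4.85 against 0.535, 0.547 and 0.110 in RPMI-8226 (2.98 ± 0.36, adjusted p = 2.46e-07), the largest called rise of a member in that line. In OPM2 it was at 5.57, 6.40 and 5.40 CPM against 2.56, 3.08 and 1.45 (1.36 ± 0.28, adjusted p = 0.000177), a call that log2 RPKM did not give (0.82, adjusted p = 0.378). All 3 lines showed no overlap, whereas in MM1S it was at 0.597, 0.101 and 0.277 CPM against 0 and 0.223 (1.92 ± 1.07, adjusted p = 0.175). HIST1H4I was called in H929 (3.13 ± 0.40, adjusted p = 6.84e-08) and OPM2 (1.19 ± 0.31, adjusted p = 0.00242), though with log2 RPKM the OPM2 value was 0.53 and not called (adjusted p = 0.404). Its RPMI-8226 value was 0.80 ± 0.39 (adjusted p = 0.117), and 1.12 without RPMI-8226 IRF4 replicate 2 (adjusted p = 0.0252). Its average of 1.21 ± 0.37 (adjusted p = 0.00597) was lost without MM1S IRF4 replicate 1 (1.08, adjusted p = 0.147), with the block within each line (1.02, adjusted p = 0.143) and with log2 RPKM (0.54, adjusted p = 0.0614). HIST1H4I lies within the RefSeq span of HIST1H2BK on the other strand, so the split of counts between them may be uncertain. HIST4H4, the single gene on chromosome 12, missed the call in every line, with 2.14 in H929 (adjusted p = 0.0636) and 1.45 in OPM2 (adjusted p = 0.0508), the OPM2 value being called with the block within each line (1.49, adjusted p = 0.0452).

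**Figure D3:**
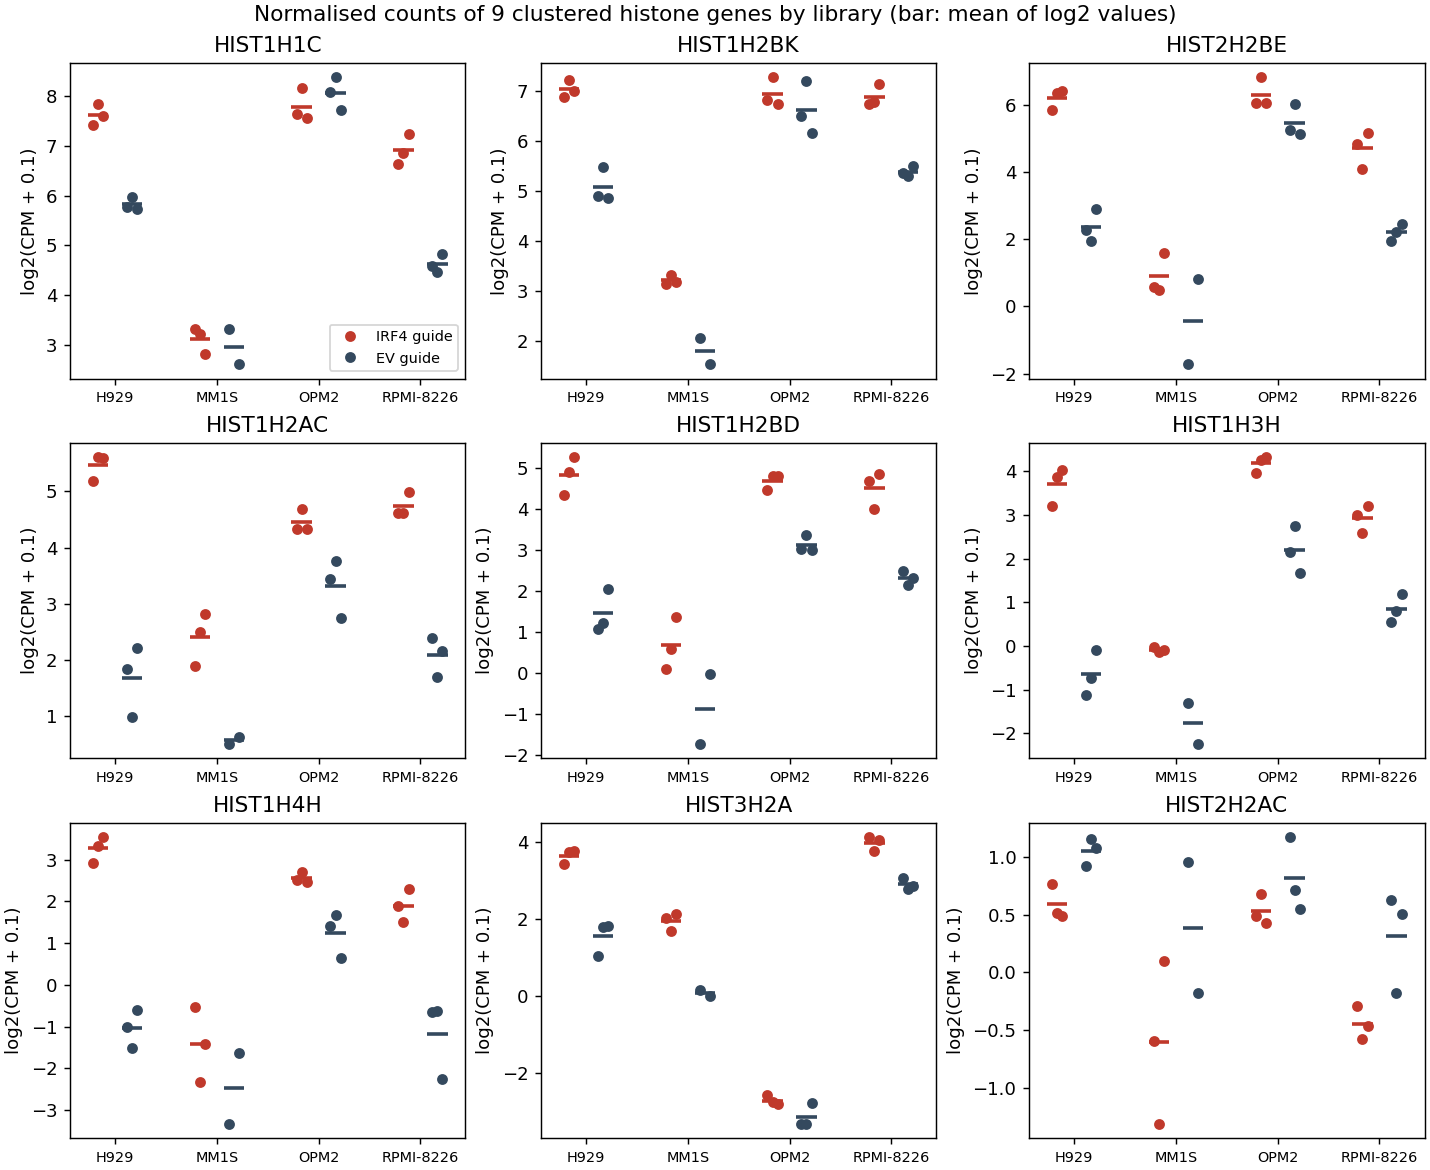
Log2(CPM + 0.1) per library (points) of 9 clustered histone genes in each line, with the IRF4 guide left of EV and bars at the mean of the log2 values; y axes differ between panels. HIST1H2AC is separated in all 4 lines, HIST1H1C in H929 and RPMI-8226, and HIST2H2AC lies lower with the IRF4 guide.

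The change differed between the 4 lines for 18 of the 41 members (edgeR F test, adjusted p under 0.05), beside 48.0% of all genes, so the share was close to the background. The smallest adjusted p-values of the difference belonged to HIST1H1C (3.71e-06), HIST1H2BJ (5.30e-06), HIST1H2BC (1.31e-05), HIST1H4H (3.81e-05) and HIST1H2AC (3.99e-05). For HIST1H1C and HIST1H2BJ the rise was in H929 and RPMI-8226, with values near 0 or below in MM1S and OPM2. HIST1H4H and HIST1H2AC had positive values in all 4 lines, with the highest in H929.

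Levels with EV also differed between lines for 33 of the 41 members, beside 93.1% of all genes. Compared per length, by the deposited log2 RPKM (38 of the 41 members), HIST1H1C had 8.45 in OPM2, 6.25 in H929, 5.07 in RPMI-8226 and 3.42 in MM1S. HIST1H2BK followed with 6.85, 5.33, 5.64 and 2.12 in the same order, and HIST1H2AC with 4.43, 2.55, 2.86 and 1.53. OPM2 had the highest level in each of these, and MM1S the lowest. HIST3H2A departed from that order, with 3.88 in RPMI-8226, 2.57 in H929, 1.20 in MM1S and -2.85 in OPM2. HIST1H3G, at 1.69 in H929, was at -0.39 in RPMI-8226, -1.14 in MM1S and -3.52 in OPM2. HIST2H2AC lay between 1.32 in RPMI-8226 and 2.66 in OPM2, and its EV level was among those not called different between lines.

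**Figure D4:**
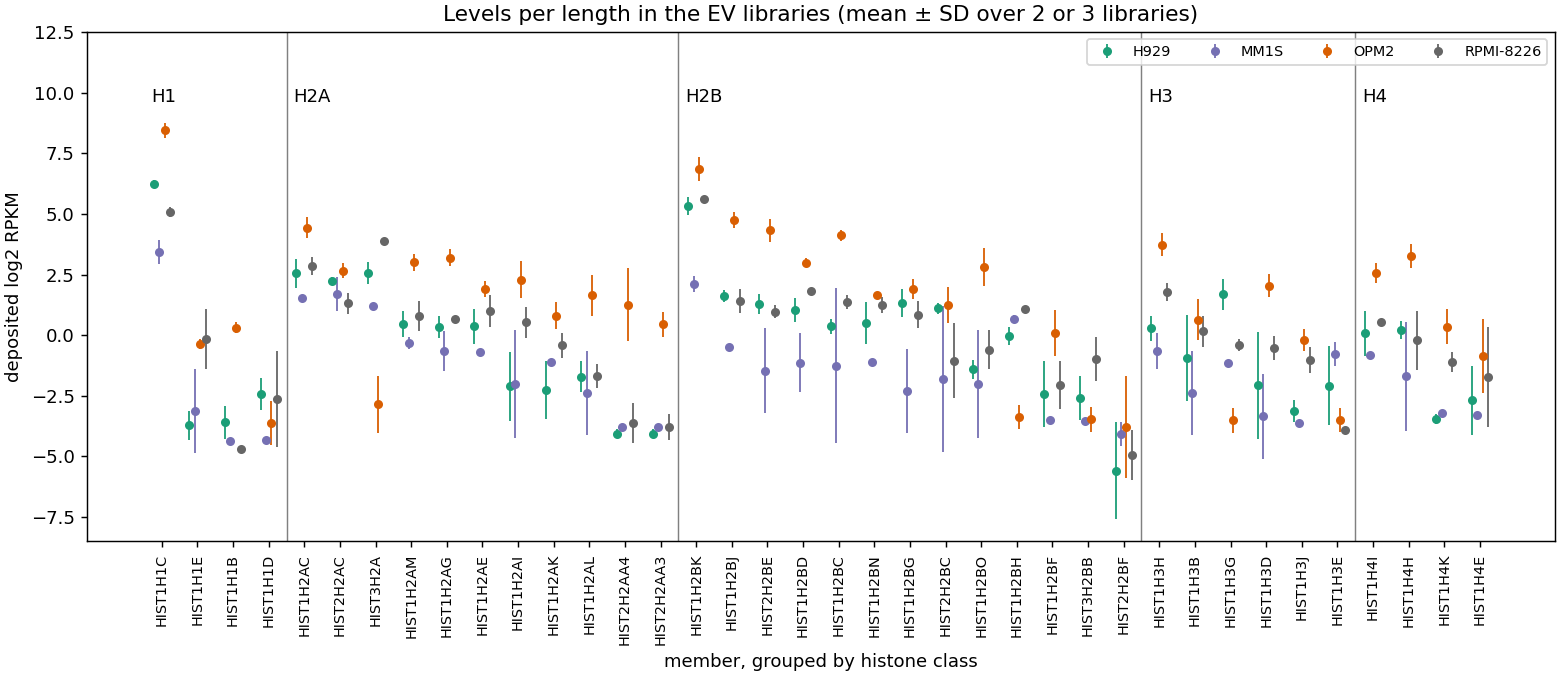
Deposited log2 RPKM (mean ± SD of the EV libraries) of 38 clustered histone genes, grouped by class and coloured by line. HIST1H1C and HIST1H2BK have the highest levels in OPM2, H929 and RPMI-8226, and HIST3H2A and HIST1H3G are low in OPM2.

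Many clustered histone genes lie head to head, most often an H2A with an H2B gene, with their start sites close together. Among the 53 members with a promoter window, 12 head-to-head pairs lay within 1000 bases. Of these, 10 were an H2A with an H2B gene and 2 an H3 with an H2B gene. Members without a window, such as HIST1H2AH next to HIST1H2BK, were not in the search, so pairs can be missing. HIST1H3D and HIST1H2AD have the same annotated start site, so HIST1H2BF was counted in a pair with each. The RefSeq span of HIST1H3D also covers that of HIST1H2AD, so the split of counts between them is uncertain. Of the 12, 9 had both genes tested, 1 of them (HIST1H3D and HIST1H2BF) an H3 with an H2B gene, with start sites 194 to 248 bases apart. Both genes were called higher in 7 pairs in H929, 6 in RPMI-8226, 2 in OPM2 and none in MM1S, and a single gene of the pair in 2, 3, 6 and 2 pairs in the same order. No share over pairs of other neighbouring genes was computed as a background for these counts. HIST2H2BE and HIST2H2AC, 236 bases apart, did not move together: in H929 the values were 3.75 and -0.44, and in RPMI-8226 2.62 and -0.85. HIST1H2BC and HIST1H2AC, 246 bases apart, were both called in H929 and RPMI-8226, but in OPM2 HIST1H2AC was called (1.14) and HIST1H2BC was not (0.48). HIST1H2BL was called in no line (0.73 in H929), while its neighbour HIST1H2AI, 244 bases away, was called in 3 lines.

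**Figure D5:**
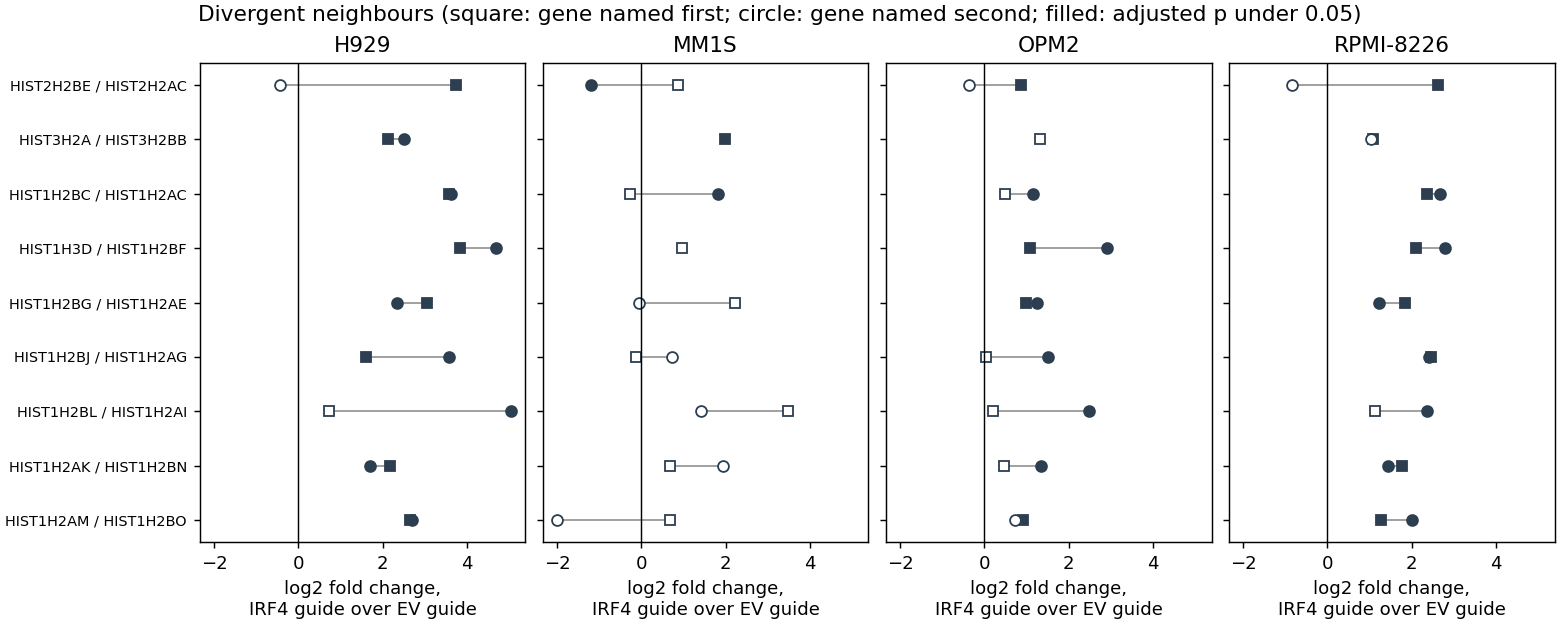
Log2 fold change of the IRF4 guide over EV for both genes (square and circle) of 9 head-to-head pairs in each line. The genes of the HIST2H2BE and HIST2H2AC pair lie on opposite sides of 0 in all 4 lines.

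Both blocks of the HIST1 cluster held called members, and the difference between the blocks was not tested. The first block (chr6:26020451-26285534) had 14 of 17 tested members called higher in H929, 10 in RPMI-8226, 8 in OPM2 and 1 in MM1S, and the second (chr6:27132316-27893891) had 11, 9, 6 and 1 of 15. Of all tested genes, 32.9%, 19.2%, 23.2% and 19.4% were higher in the same line order, so both MM1S counts lay below that share. Members with an annotated transcript more than 100 bases past the stem-loop were called higher in 15, 11, 10 and 2 of 18 cases in the same line order, and the other tested members in 15, 10, 6 and 1 of 23. Those others include genes with a short annotated transcript in which no stem-loop was found, so the split depends on the annotation. Of 8 members that are documented to give polyadenylated transcripts, 7 each were called higher in H929 and RPMI-8226, 3 in OPM2 and 2 in MM1S. HIST1H1C, HIST1H2BK, HIST1H2BJ and HIST1H2BD are among these 8, but had no annotated transcript more than 100 bases past a stem-loop. The difference between these groups of members was not tested.

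The 17 members below the filter had at most 74 counts over all libraries. The most counted were HIST1H4C (53 counts with the IRF4 guide against 21 with EV), HIST1H2AH (48 against 25) and HIST2H2AB (41 against 29). Each of the 17 had more counts in the IRF4 libraries, of which there was 1 more. These counts were not scaled to library size. The mean total with the IRF4 guide and with EV was 18907300 and 19645000 counts in H929, and 15015900 and 9014200 in MM1S. It was 23575600 and 19610100 in OPM2, and 22144500 and 19999100 in RPMI-8226. HIST1H4K, tested but sharing 100% of its 50-base windows with other histone genes, had 10 counts with the IRF4 guide and 0 with EV in H929, at least 3.37-fold higher with 3 counts over the EV group as the floor.

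Genes that process histone pre-mRNA went the other way. Of 17 tested, 14 were lower and 1 higher on the average of the 4 lines, beside 25.1% and 32.6% of all tested genes. The median was -0.30 against 0.11 over all genes. SLBP, which binds the stem-loop, fell by 0.75 on average (-0.75 ± 0.05, edgeR adjusted p = 6.81e-13), with -1.35 in H929, -0.62 in OPM2 and -0.92 in MM1S, while the RPMI-8226 value of -0.13 was not called (adjusted p = 0.348). CASP8AP2, a component of the histone locus body, and ERI1, an exonuclease that trims histone mRNA ends, were lower by -0.62 ± 0.05 (adjusted p = 4.59e-12) and -0.52 ± 0.04 (adjusted p = 6.09e-12). By line, 13, 10, 12 and 7 of the 17 were lower in H929, MM1S, OPM2 and RPMI-8226. Of all tested genes, 26.1%, 15.2%, 20.2% and 14.7% were lower in the same order, and 32.9%, 19.4%, 23.2% and 19.2% higher. These shares, and those on average, are also the background of the gene lists that follow.

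Of 12 genes of histone gene transcription, 10 were lower and 2 higher on average (median -0.37). CDC25A, the phosphatase that activates CDK2, had -1.21 ± 0.05 (edgeR adjusted p = 7.12e-18), CDK2 itself -0.64 ± 0.05 (adjusted p = 8.53e-13) and E2F2 -0.40 ± 0.04 (adjusted p = 1.17e-10). In RPMI-8226, 3 of the 12 were higher and 1 lower. Of 25 histone chaperones and importers, 19 were lower and 4 higher on average (median -0.39). The lower ones included SSRP1 of the FACT complex (-0.57 ± 0.04, adjusted p = 1.32e-13), CHAF1A of the CAF-1 complex (-0.60 ± 0.04, adjusted p = 6.65e-13) and ANP32E (-0.69 ± 0.05, adjusted p = 7.97e-13). By line, 19, 15, 16 and 2 of the 25 were lower in H929, MM1S, OPM2 and RPMI-8226, and 3, 2, 2 and 2 higher. The RPMI-8226 median was -0.05. On average, histone variants encoded outside the clusters and made independently of replication were lower in 7 of 11 tested and higher in none (median -0.15). The lower variants included H2AFZ, the H2A.Z gene (-0.65 ± 0.05, adjusted p = 1.83e-13), and CENPA, the centromeric H3 (-0.39 ± 0.07, adjusted p = 4.39e-05). In the single lines, 8, 3, 2 and 1 of the 11 were lower in H929, MM1S, OPM2 and RPMI-8226, and 1, 0, 0 and 3 higher.

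The 14 S phase markers were all lower on average (median -0.74). CDC6 was at -1.14 ± 0.06 (edgeR adjusted p = 2.49e-16), CDC45 at -1.03 ± 0.06 (adjusted p = 6.36e-16) and PCNA at -0.88 ± 0.05 (adjusted p = 1.43e-15). By line, 14, 14, 11 and 3 of the 14 were lower in H929, MM1S, OPM2 and RPMI-8226. Their summed level was 1739 to 1795 CPM with the IRF4 guide against 4180 to 4917 with EV in H929, 1708 to 2366 against 4466 to 4670 in MM1S, 2726 to 3441 against 3882 to 4598 in OPM2 and 4801 to 5716 against 5170 to 5665 in RPMI-8226. The groups overlapped in RPMI-8226 alone, where 21 of the 41 histone members were called higher.

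Plasma cell markers were detected in all 23 libraries, and all 7 were lower on average, among them TNFRSF17 (-1.61, edgeR adjusted p = 1.09e-14), PRDM1 (-0.57, adjusted p = 3.85e-13) and SDC1 (-0.33, adjusted p = 4.78e-09). By line, 5, 3, 7 and 3 of the 7 were lower in H929, MM1S, OPM2 and RPMI-8226, and 1 was higher in RPMI-8226. Genes that mark T and NK cells moved with the guide. Of 6 tested, 6 were higher in H929, 3 in OPM2, 2 in RPMI-8226 and 1 in MM1S. Their summed level was 124 to 134 CPM with the IRF4 guide against 13.7 to 15.8 with EV in H929, 11.1 to 14.96 against 5.35 to 6.11 in MM1S, 2.38 to 3.70 against 0 to 0.260 in OPM2 and 1.72 to 3.47 against 0.658 to 1.21 in RPMI-8226. CD3E held most of these counts (2.85 ± 0.20 on average, adjusted p = 3.58e-13), while CD3D was at 0 in 19 libraries and CD3G in 14. Of 5 myeloid markers, 3 were tested and 1, ITGAM, was higher on average (3.35 ± 0.49, adjusted p = 1.23e-06). The myeloid sum was 3.29 to 3.74 CPM against 0.140 to 0.375 in H929, 8.04 to 12.9 against 1.32 to 2.34 in MM1S, 0.664 to 0.868 against 0.119 to 0.149 in OPM2 and 8.94 to 16.4 against 2.50 to 3.29 in RPMI-8226. Of stromal and epithelial markers 5 were tested, and of erythroid and megakaryocyte markers 2, with no call in either direction on average. Among the stromal and epithelial ones COL1A1 was lower in H929 (-2.24, adjusted p = 0.0158), KRT8 higher in OPM2 (4.10, adjusted p = 0.0334) and EPCAM lower in RPMI-8226 (-0.49, adjusted p = 0.00326), where their sum was 187 to 199 CPM with the IRF4 guide against 232 to 242 with EV. That sum was 3.43 to 3.96 CPM against 2.999 to 5.17 in H929, 0.386 to 0.708 against 0.102 to 1.45 in MM1S and 0.291 to 0.327 against 0 to 0.149 in OPM2. The globin gene HBA1 was lower in RPMI-8226 (-2.19, adjusted p = 0.000177), and the erythroid sum was at most 3.27 CPM in any library. The part of these markers, and of the S phase genes, in the histone result was not tested.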

How the data were processed

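RNA from 23 libraries of 4 myeloma lines was sequenced, per the labels' protocols, after RNeasy Plus purification with a TruSeq RNA kit. The authors deposited raw counts per gene, and a log2 RPKM value per gene and library for 16220 genes, per the file headers. Subread, featureCounts and limma, with GRCh38 (hg38), are named per the submitters' processing notes; their settings, the strand and poly(A) selection are not given in the sources used here. Genes without a symbol (490) took 0.110 to 0.292% of a library and stayed in the fit.

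The count analysis ran in edgeR 4.0.16 under R 4.3.3. filterByExpr by group left 16468 genes, TMM factors ran from 0.914 to 1.08, and 1 robust quasi-likelihood fit over the 8 groups gave each line's contrast, their average and the F test between lines, adjusted by Benjamini-Hochberg over all genes (threshold 0.05). Levels are TMM-normalised CPM. SE is the absolute change divided by the root of F. Alternatives used limma 3.58.1 on the deposited log2 RPKM, and DESeq2 1.42.0. The edgeR fit was also run on simulated counts. These had the same baseline and the same change in every line, so recovery of line-specific changes was not tested. Bounds and floors of 3 counts cover counting error only.

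The members and gene lists were chosen with earlier results of these data known. Named members were those with a call in 1 direction in 4 lines, the largest called rise and fall per line, the highest EV levels per length in each class, the 5 smallest p-values of the difference between lines, and IRF4; up to 3 called genes per list were named by adjusted p. HIST2H2BE, HIST1H2BD, HIST1H2AG, HIST1H3G, HIST4H4, the genes of the pairs and those with few counts were added after their values were seen. Library pairs of a group differed by more than counting noise (chi-square per gene 3.14 to 23.2).

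Replicate numbers come from the titles. Deviations of libraries with the same number correlated at 0.246, 0.115 and 0.188 in H929, 0.275, 0.264 and 0.311 in OPM2 and 0.157, 0.190 and 0.143 in RPMI-8226. Libraries with different numbers were not compared, so how far the numbers pair the samples is not shown. The main fit left the numbers out, and the replicate blocks entered them as alternatives. In MM1S the correlations were 0.0391 and 0.0698 over 2 pairs.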

Additional observations from a re-analysis of the deposited data

Results flagged for a closer look

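For 18 of the 41 tested members the change with the IRF4 guide differed between the 4 lines, by the edgeR F test of the difference adjusted over all genes. The share is close to that of all genes (48.0%). HIST1H1C (adjusted p = 3.71e-06), HIST1H2BJ (5.30e-06) and HIST1H2BC (1.31e-05) changed most in H929 and RPMI-8226, with HIST1H2BC at 3.57 and 2.37 there against -0.27 in MM1S and 0.48 in OPM2. HIST1H4H (3.81e-05), HIST1H2AC (3.99e-05), HIST1H3H (0.000103), HIST1H2AG (0.000156), HIST1H3D (0.000280) and HIST2H2BE (0.000927) had positive values in every line, with H929 the highest. The same held for HIST1H2BK (0.00230), HIST1H2AM (0.00401), HIST1H2BD (0.00779), HIST3H2A (0.00813), HIST1H2BG (0.0110) and HIST1H2AI (0.0407). HIST1H4I (0.00394) had 3.13 in H929 and -0.27 in MM1S. HIST1H2BO (0.0313) had in MM1S 1 count with the IRF4 guide against 2 with EV. HIST1H2BH (0.0497) had 1.08 in H929 and -1.44 in MM1S, and in OPM2 it had 2 counts with the IRF4 guide against 0 with EV.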

How the results depend on the processing

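The number of members called higher in H929 and RPMI-8226, and on average, stayed within 1.5 times under all alternatives run. In MM1S, 3 higher calls became 5 without a low-count filter, with DESeq2 and with either replicate block, and 6 with the deposited log2 RPKM. The lower call there became 0 without the filter, with each line alone and with the block within each line, and 2 with log2 RPKM. In OPM2, 16 higher calls became 5 with log2 RPKM, and 0 lower calls became 1 without the filter, with the block within each line and with log2 RPKM. A lower call appeared in RPMI-8226 (1) with RLE factors, with the filter of over 0.5 CPM in at least 2 libraries and with log2 RPKM, and in H929 (1) with log2 RPKM. The causes were not tested. Leaving out each library gave 27 to 31 higher and 0 lower in H929, 1 to 4 and 0 to 2 in MM1S (1 higher without MM1S EV replicate 2), 13 to 18 and 0 in OPM2, 20 to 23 and 0 to 1 in RPMI-8226, and 18 to 23 and 1 on average. It gave 15 to 18 members whose change differed between lines, and 30 to 35 for EV levels.

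The replicate block within each line gave 29 higher calls in H929, 19 in OPM2, 21 in RPMI-8226 and 18 on average. It lost HIST1H2BH in H929 (1.05, adjusted p = 0.0585) and HIST2H2AC in MM1S (-1.16, 0.141). It also lost HIST1H2BG and HIST1H4K on average, and added HIST1H2BD (1.86, 0.00384) and HIST1H3E (2.83, 0.0202) in MM1S and HIST1H2BO (0.72, 0.0250) in OPM2. Apart from these and those given beside their results, it changed no member's call in a line. HIST1H2BH in H929 was reversed with log2 RPKM (-0.0065, adjusted p = 0.991). Leaving out the 7 members that share most windows, an alternative chosen after seeing the data, left 25, 2, 14 and 18 higher calls in H929, MM1S, OPM2 and RPMI-8226. Low counts limit the 28 members that had under 100 counts over all libraries.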
